A study of Mus musculus with 9 samples.

Results

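The 31 genes described here encode subunits and assembly factors of the proteasome, chosen by name: every gene whose symbol is Psma, Psmc or Psmd followed by digits, and Psmb1 to Psmb4. They are 31 of the 19072 gene identifiers in the tables. Each was listed in all 9 libraries and each entered the test. The name pattern fits 32 genes in the reference naming, and the one listed in none of the libraries was Psma8, a testis form of an alpha subunit. The names leave out the cutting subunits Psmb5, Psmb6 and Psmb7 and the regulatory subunits Adrm1 and Shfm1, which are given further on as related genes. They take in 3 chaperones, Psmd5, Psmd9 and Psmd10, which help to assemble the base and are not part of the finished particle.

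RNA was sequenced from cultured 4T1-TGL cells, a breast cancer cell line labelled with the mouse strain BALBC and grown in DMEM/F12 medium, with 100 base paired reads and about 40 M reads a sample. Ctrl cells are labelled wild type for Malat1, a long nuclear non-coding RNA, and KO1 and KO2 are 2 lines labelled as Malat1 knockouts, which the design text numbers 3 and 43. Each group has 3 libraries. The labels give neither how Malat1 was removed nor whether a line grew from a lone cell, and they do not say that the libraries of a group came from separate cultures, so the p-values measure the spread between these libraries, which may be technical.

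The proteasome is the main machine with which cells break down proteins that carry ubiquitin chains. Its core particle is a barrel in which outer alpha rings guard the entrance and inner beta rings hold the cutting sites. The regulatory particle caps the barrel: its base carries a ring of ATPases that unfold substrates and push them in, and its lid removes the ubiquitin chain. In mammalian cells many subunit genes are switched on together by the transcription factor NRF1, encoded by Nfe2l1, when proteasome activity falls short.

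Malat1 was at 67.3 FPKM in Ctrl, 0.503 in KO1 and 17.4 in KO2 (FPKM, fragments scaled to transcript length and library size, means of 3 libraries). Its log2 fold change was -7.08 in KO1 and -1.88 in KO2, so the KO2 libraries kept more of the transcript than the KO1 libraries. Expected counts per library summed to between 30655924 and 35406395. Of 5 epithelial markers, Krt8 and Krt18 were abundant and rose in both lines, while Epcam, Cdh1 and Cldn4 stayed under 0.5 FPKM on average in every group. The summed epithelial level ran from 456 to 472 FPKM over the Ctrl libraries, from 799 to 939 in KO1 and from 1342 to 1448 in KO2. The 3 leukocyte markers reported here summed to 12.1 to 17.6, 23.6 to 31.7 and 9.45 to 11.3 FPKM, nearly all of it Cd68, with Ptprc and Cd3e at or near 0. The 4 fibroblast markers summed to 50.9 to 52.6, 42.0 to 45.3 and 20.3 to 21.1 FPKM, mostly Pdgfra. The part of these shifts in the changes of proteasome genes was not tested.

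On the per-length FPKM scale the proteasome genes were among the more abundant transcripts of the cells. In Ctrl the 28 subunits, without the 3 chaperones, lay between the 88.2nd and the 98.2nd percentile of the 13541 genes listed in every library. Psma6, an alpha ring subunit, had the highest Ctrl level at 244 FPKM, followed by Psma7 of the same ring at 231. The lowest subunit was the lid protein Psmd13 at 50.1 FPKM, so the mean mRNA levels of the subunit genes spanned a 4.87-fold range. This ratio was 7.06 in KO1, between Psma7 and Psmd13, and 6.17 in KO2, between the same pair. The chaperones were lower, with Psmd5 at 47.4, Psmd10 at 30.6 and Psmd9 at 13.6 FPKM in Ctrl. For the proteasome genes, replicate libraries were close: the coefficient of variation of a gene within a group had a median of 5.49% and reached 19.8% for Psma2 in KO1.

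**Figure D1:**
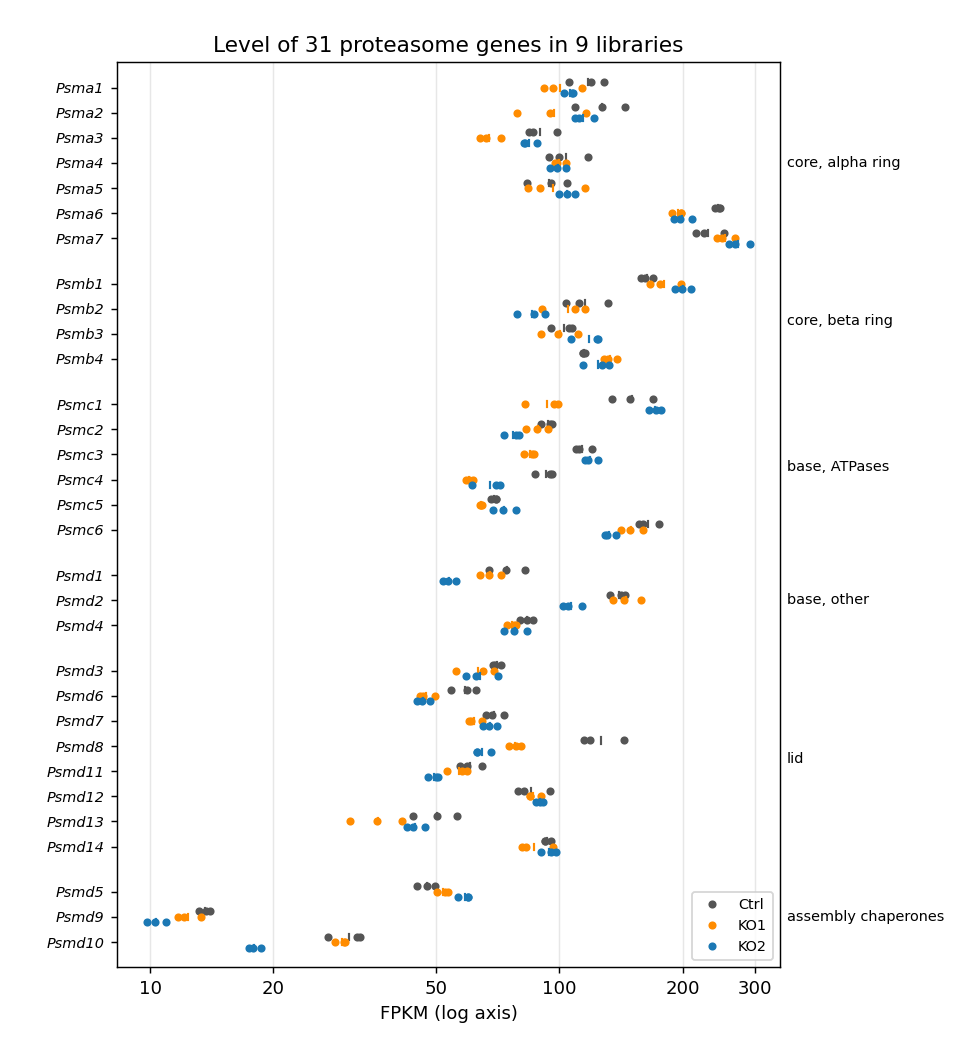
Level of the 31 proteasome genes in FPKM (log axis), with a point for each library and a tick at the group mean, in Ctrl, KO1 and KO2, grouped by place in the particle. Psma7 is first or second and the chaperones Psmd9 and Psmd10 are lowest in all 3 groups, and the Psmd8 points of both knockout lines lie below those of Ctrl.

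Summed over the genes, the FPKM of the 28 subunits was 3280, 2994 and 3025 in the 3 Ctrl libraries. In KO1 the sums were 2680, 2897 and 2751, and in KO2 they were 3011, 2797 and 2920. All KO1 sums lay below all Ctrl sums, while KO2 overlapped Ctrl. The 17 regulatory particle genes summed to 1595 ± 63.3 FPKM in Ctrl (SD, n = 3), 1347 ± 13.5 in KO1 and 1400 ± 36.9 in KO2, with no overlap between Ctrl and either line. The 11 core genes summed to 1504 ± 97.7, 1428 ± 103 and 1509 ± 73.1 FPKM and overlapped throughout. This core sum leaves out the 3 cutting subunits Psmb5, Psmb6 and Psmb7. Those summed to 326 ± 8.90, 267 ± 5.34 and 333 ± 11.7 FPKM, 81.9% of the Ctrl sum in KO1 and 102% in KO2. All KO1 sums of the cutting subunits lay below all Ctrl sums, and KO2 overlapped Ctrl. Among the regulatory genes, the 6 ATPases stood at 79.1% of the Ctrl sum in KO1 and at 93.7% in KO2, and the 3 other base subunits at 97.5% and 80.2%. The 8 lid genes stood at 84.2% and 84.8%. These sums are descriptions and carry no test, and FPKM were not rescaled by TMM.

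Changes were tested per gene on the counts, with edgeR's quasi-likelihood test and Benjamini-Hochberg adjustment over all 13682 tested genes. A gene is said to have risen or fallen where the adjusted p was under 0.05. CPM, counts scaled to library size after TMM normalisation, are given for single libraries, and standard errors (SE) of log2 fold changes are approximate, worked back from the test statistic. In RNA from bulk cultures, fewer cells with a transcript and less of it per cell cannot be told apart.

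In KO1, 10 of the 31 genes fell and 0 rose. Of all tested genes, 30.5% passed the test in this comparison, 15.6% as higher and 14.9% as lower, so the 32.3% of proteasome genes that passed is near the background, and all 10 of them were falls. The median log2 fold change of the 31 genes was -0.16 against 0.00 (-0.0017) for all tested genes, and 26 of the 31 values were negative. At or above the lowest average log2 CPM of the 31 were 6551 tested genes. Of these 946 rose and 1010 fell (29.9% in all), with a median of -0.01. Psmb4 was the only gene with a positive value at an unadjusted p under 0.05 by edgeR, and it alone was called higher under DESeq2, total count scaling and limma on FPKM at both pseudocounts, where the counts were 1 higher with 11, 9, 8 and 8 lower. Its log2 fold change was 0.18 (SE 0.07, edgeR adjusted p = 0.068).

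In KO2, 7 genes rose and 12 fell. Of all tested genes, 54.1% passed the test here, 24.6% higher and 29.5% lower, beside 61.3% of the proteasome genes. Their median log2 fold change was -0.06, against -0.03 for all tested genes. The count of rising genes was the less stable part: it was 3 under total count scaling and under limma on FPKM at both pseudocounts, each with 12 lower, 3 without Ctrl replicate 3, KO2 replicate 1 or KO2 replicate 3, and 4 without Ctrl replicate 2. The count of falling genes was 7 without KO2 replicate 2.

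Both knockout comparisons use the same 3 Ctrl libraries, so their values are set side by side and not correlated. Psma6, Psmc4, Psmd6 and Psmd8 fell in both lines, 12.9% of the proteasome genes, beside 7.83% of all tested genes that fell in both. No proteasome gene rose in both, beside 6.31% of all tested genes. In neither line did 7 genes pass the test, 22.6% beside 35.6% of all tested genes. Psmc1 alone fell in KO1 and rose in KO2, 3.23% of the proteasome genes beside 2.08% of all tested genes.

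**Figure D2:**
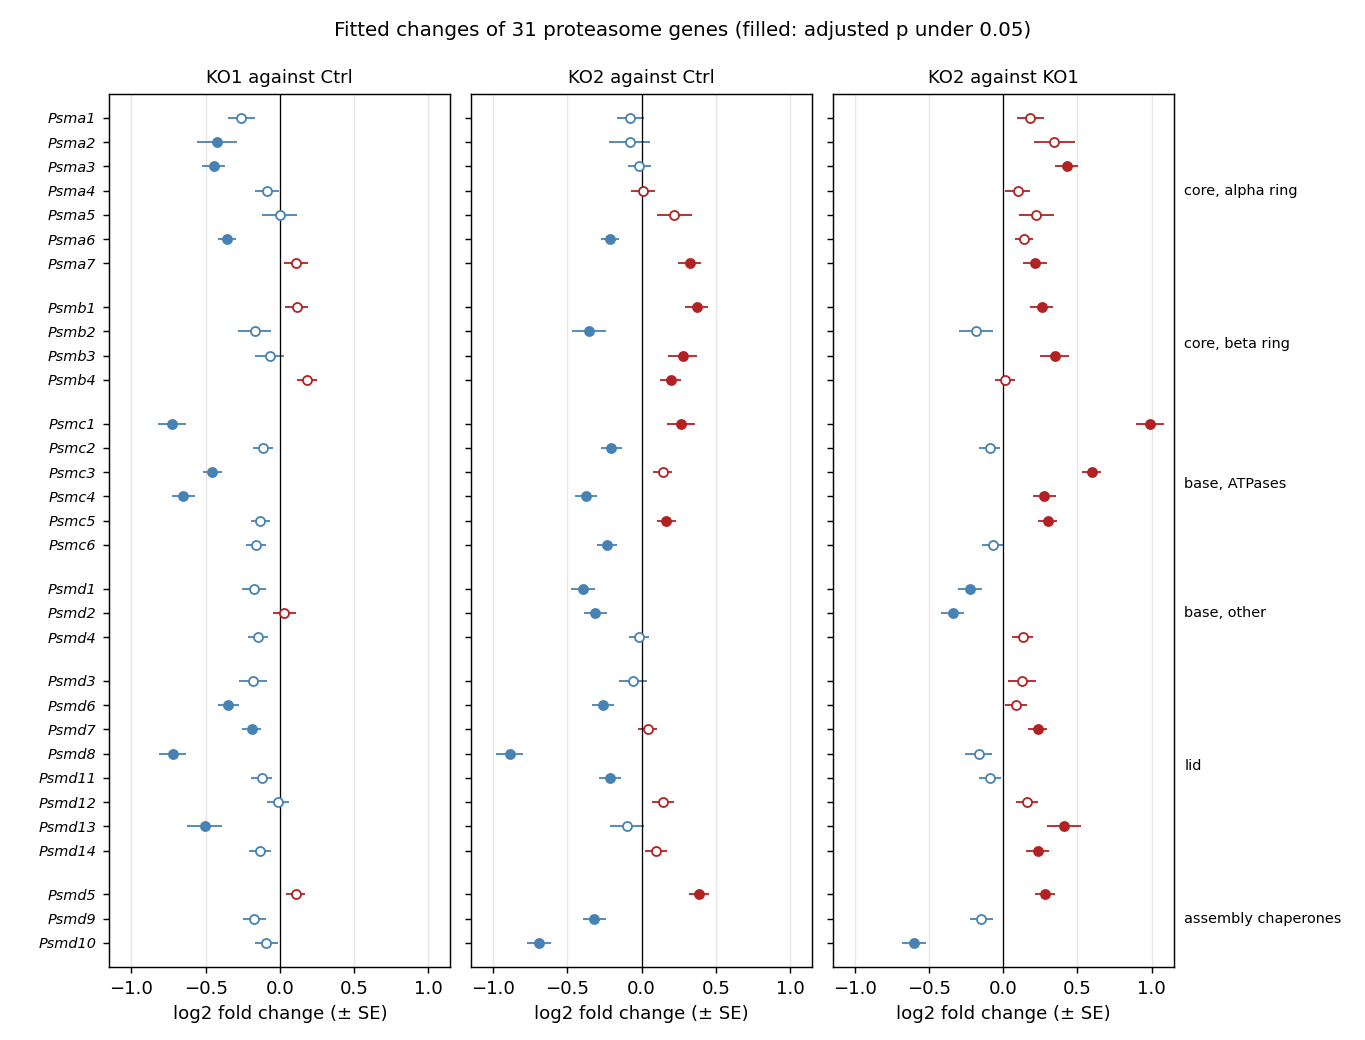
Log2 fold change with its approximate standard error for the 31 proteasome genes in KO1 against Ctrl, KO2 against Ctrl and KO2 against KO1, with filled points where the edgeR adjusted p was under 0.05, red above 0 and blue below. In the left panel all 10 filled points lie below 0, in the middle panel 7 lie above and 12 below, and Psmc1 changes sides between them.

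The promoters of 4 of these genes are shown for reference: Psmd8, which fell most in KO2 and also fell in KO1; Psmc1, which moved in opposite directions; and Psmd9 and Psmc6, which fell in KO2 and carry a match to the antioxidant response core, the letters to which NRF1 and NRF2 bind. Each is the 250 bases before the RefSeq start site (build GRCm38.p6), written 5′ to 3′ on the gene's own strand, with matches to TGACNNNGC, CCAAT or CCGGAAG, on either strand, in capitals. The Psmd8 window is chr7:29180674-29180923 on the minus strand and holds none of the 3. The others are on the plus strand: Psmc1 at chr12:100109952-100110201, with CCAAT and, on the other strand, CCGGAAG; Psmd9 at chr5:123227940-123228189, with the antioxidant core; and Psmc6 at chr14:45329574-45329823, with the antioxidant core on the other strand and CCGGAAG.
Psmd8: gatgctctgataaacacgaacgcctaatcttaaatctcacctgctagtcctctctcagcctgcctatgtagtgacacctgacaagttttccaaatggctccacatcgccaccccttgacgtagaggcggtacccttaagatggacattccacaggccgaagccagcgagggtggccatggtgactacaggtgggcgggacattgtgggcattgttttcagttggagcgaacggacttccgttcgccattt
Psmc1: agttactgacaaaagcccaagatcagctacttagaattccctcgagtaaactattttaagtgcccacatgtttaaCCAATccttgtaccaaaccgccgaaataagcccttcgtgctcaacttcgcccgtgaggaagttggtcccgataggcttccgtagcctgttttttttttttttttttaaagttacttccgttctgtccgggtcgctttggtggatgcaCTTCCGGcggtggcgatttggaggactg
Psmd9: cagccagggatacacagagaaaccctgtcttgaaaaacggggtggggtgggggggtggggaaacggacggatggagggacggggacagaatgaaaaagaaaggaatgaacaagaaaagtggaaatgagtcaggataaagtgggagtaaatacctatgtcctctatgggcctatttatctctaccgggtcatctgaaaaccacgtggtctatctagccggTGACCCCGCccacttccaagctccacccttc
Psmc6: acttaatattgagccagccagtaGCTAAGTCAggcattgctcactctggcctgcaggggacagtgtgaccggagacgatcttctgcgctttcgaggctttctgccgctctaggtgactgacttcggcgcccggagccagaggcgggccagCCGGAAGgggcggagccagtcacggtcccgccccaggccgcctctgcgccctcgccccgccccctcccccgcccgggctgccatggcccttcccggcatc

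RefSeq windows, from 250 bases before to 50 after the start, were found for 26 of the 31 genes. The antioxidant core TGACNNNGC was in the windows of 3 of the 26 (11.5%), Psmd9, Psmc6 and Psmd12, beside 12.4% of all 32851 windows of that length. Psmd9 and Psmc6 fell in KO2, whereas Psmd12 had a log2 fold change of 0.15 (SE 0.08, edgeR adjusted p = 0.13). CCAAT, the box bound by NF-Y, was in 11 of the 26 (42.3%) beside 37.4% of all windows. CCGGAAG, a core bound by ETS factors, was in 10 of the 26 (38.5%) beside 8.86% of all windows. Of the other motifs searched on both strands, TGACG was in 12 of the 26 (46.2%, beside 20.8%), ACTACA in 3 (11.5%, beside 10.3%) and TGACGTCA, which includes TGACG, in none (beside 1.79%). The antioxidant core with a further A at its end was in 1 (3.85%, beside 3.04%), and so was the palindrome of nuclear respiratory factor, a protein other than the product of Nfe2l1 (3.85%, beside 0.971%). Matches to CCGGAAG occurred in genes that fell in KO1 (Psma6, Psmc1, Psmd6, Psmd13), in genes that fell only in the KO2 test (Psmc2, Psmc6, Psmd2, Psmd11) and in genes that passed neither (Psmd4, Psmd12). Shares of the 26 are per gene, whereas the shares beside them are per window, and 2 of the genes had 2 windows. Counted over the 28 windows of these genes, CCAAT and CCGGAAG were each in 39.3% and TGACG in 42.9%. By that count the antioxidant core and ACTACA were each in 10.7%, and the longer core and the palindrome each in 3.57%. A match is a run of letters, and none of these data measured binding.

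The alpha ring forms the gate of the core. Of its 7 genes, 3 fell in KO1 and none rose, with a median log2 fold change of -0.26, and in KO2 1 rose and 1 fell, with a median of -0.02. For the counts by role here and below, the share of all tested genes that passed was 30.5% in KO1 and 54.1% in KO2. Psma6 was at 231, 226 and 228 CPM in Ctrl, 181, 183 and 172 in KO1, and 207, 187 and 196 in KO2. Every library of both lines was below every Ctrl library. Psma6 fell by 0.35 on the log2 scale in KO1 (SE 0.06, edgeR adjusted p = 0.0012). In KO2 the value was -0.21 (SE 0.06, edgeR adjusted p = 0.012), and this call was lost without KO2 replicate 2 (adjusted p = 0.058).

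Psma3, which closes the alpha ring beside Psma6, was at 227, 200 and 192 CPM in Ctrl and at 162, 145 and 148 in KO1. KO2 was back in the Ctrl range at 212, 200 and 201 CPM. It fell by 0.44 on the log2 scale in KO1 (SE 0.08, edgeR adjusted p = 0.0013), and its value in KO2 was -0.02 (SE 0.08, edgeR adjusted p = 0.88). Psma2 fell by 0.42 in KO1 (SE 0.14, edgeR adjusted p = 0.037), but its Ctrl libraries at 131, 99.5 and 114 CPM overlapped the KO1 libraries at 69.6, 103 and 83.6. That call held in 7 of 20 alternatives.

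Psma7 was the alpha gene that rose in KO2. It was at 225, 194 and 200 CPM in Ctrl, 219, 237 and 212 in KO1, and 274, 244 and 256 in KO2. By CPM the KO2 libraries were the highest of the 9, and KO1 overlapped Ctrl. By FPKM, KO1 replicate 2 at 269 lay above KO2 replicate 2 at 259. The KO2 rise was 0.32 on the log2 scale (SE 0.08, edgeR adjusted p = 0.0049). Psma1, Psma4 and Psma5 passed the edgeR test in neither line, with log2 fold changes from -0.26 to 0.00 in KO1 and from -0.08 to 0.22 in KO2. Psma1, at -0.26 in KO1 (edgeR adjusted p = 0.056), was called lower there by DESeq2 (adjusted p = 0.044) and by edgeR without Ctrl replicate 2 (0.028) or KO1 replicate 2 (0.0071). Psma5 was called higher in KO2 by edgeR without KO1 replicate 2 (adjusted p = 0.027) and in a fit of Ctrl and KO2 alone (0.034). RefSeq names a pseudogene of Psma5, and how reads were shared between such copies is not given in the sources used here.

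The beta ring genes counted here have no cutting site. None of the 4 passed the test in KO1, where 1 had an unadjusted p under 0.05 by edgeR. All 4 passed in KO2, beside 54.1% of all tested genes: Psmb1, Psmb3 and Psmb4 rose and Psmb2 fell. Psmb1 was at 165, 159 and 153 CPM in Ctrl, 158, 190 and 167 in KO1, and 214, 197 and 207 in KO2. In CPM the KO2 libraries stood above all others, by a log2 fold change of 0.37 over Ctrl (SE 0.08, edgeR adjusted p = 0.0019). In FPKM, KO1 replicate 2 at 199 lay above KO2 replicate 2 at 192. Psmb2 fell by 0.35 (SE 0.11, edgeR adjusted p = 0.020), from 105, 83.9 and 88.8 CPM in Ctrl to 72.9, 66.3 and 78.4 in KO2, and its KO1 libraries overlapped both groups. The rises of Psmb3 (0.28, SE 0.10, edgeR adjusted p = 0.031) and Psmb4 (0.20, SE 0.07, edgeR adjusted p = 0.034) were smaller.

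Which libraries those beta calls rest on can be read from leaving out 1 at a time. Psmb3 lost its KO2 call without Ctrl replicate 1 (adjusted p = 0.0505), Ctrl replicate 3 (0.122), KO2 replicate 1 (0.103) or KO2 replicate 3 (0.103). Psmb4 lost it without any of the 3 Ctrl libraries (0.076, 0.052 and 0.099), without KO1 replicate 3 (0.0505), and without KO2 replicate 1 (0.136) or KO2 replicate 3 (0.105). Psmb2 lost it without Ctrl replicate 1 (0.088), KO2 replicate 1 (0.054) or KO2 replicate 2 (0.084). Psmb1 kept its call in every alternative run.

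The ATPase ring of the base included the gene with the largest difference between the lines, Psmc1. In KO1, 3 of its 6 genes fell (Psmc1, Psmc4, Psmc3), none rose and all 6 values were negative, around a median of -0.31. In KO2, Psmc1 and Psmc5 rose and Psmc4, Psmc6 and Psmc2 fell, with a median of -0.03. Psmc1, whose tail helps to open the alpha gate, was at 248, 198 and 216 CPM in Ctrl, 118, 144 and 139 in KO1, and 273, 264 and 259 in KO2. In CPM the groups did not overlap: every KO1 library was below Ctrl and every KO2 library above it. In FPKM, not rescaled by TMM, Ctrl replicate 1 at 169 lay above KO2 replicate 3 at 165. The log2 fold change of Psmc1 was -0.72 in KO1 (SE 0.10, edgeR adjusted p = 0.0002), where the level fell by 39.5%. In KO2 it rose by 0.26 (SE 0.09, edgeR adjusted p = 0.034). The KO2 call was lost in 9 of 20 alternatives, among them total count scaling (adjusted p = 0.118) and both limma fits on FPKM (0.119 and 0.116). The edgeR call was also lost without Ctrl replicate 2 (adjusted p = 0.122), Ctrl replicate 3 (0.098), KO2 replicate 1 (0.10), KO2 replicate 2 (0.073) or KO2 replicate 3 (0.060). The row of Psmc1, like that of Psmc5, also held an unnamed transcript model of the sequencing provider.

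Psmc4 was at 130, 132 and 118 CPM in Ctrl, 80.6, 79.7 and 82.3 in KO1, and 101, 88.3 and 105 in KO2. It fell in both lines, with KO1 lowest and no overlap in CPM between any pair of groups. In FPKM, KO2 replicate 2 at 61.25 lay just below KO1 replicate 3 at 61.51. Its fall in KO1 was 0.65 on the log2 scale (-0.65, SE 0.08, edgeR adjusted p = 9.3e-05), and the value in KO2 was -0.38 (SE 0.08, edgeR adjusted p = 0.0017). Psmc3, an ATPase whose tail also docks into the alpha ring, was at 190, 178 and 173 CPM in Ctrl, 127, 135 and 133 in KO1, and 206, 196 and 194 in KO2. Psmc3 fell by 0.45 in KO1 (SE 0.06, edgeR adjusted p = 0.0003). Its KO2 libraries were all above Ctrl in CPM without passing the test (log2 fold change 0.14, SE 0.06, edgeR adjusted p = 0.080). In FPKM, Ctrl replicate 1 at 120 lay above KO2 replicate 3 at 115.

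The other ATPases moved less. In KO2, Psmc6 fell by 0.23 (SE 0.07, edgeR adjusted p = 0.015), Psmc2 fell by 0.20 (SE 0.07, edgeR adjusted p = 0.027) and Psmc5 rose by 0.17 (SE 0.06, edgeR adjusted p = 0.044). None of these calls held with every library left out in turn. Psmc6 lost it without Ctrl replicate 1 (adjusted p = 0.064), KO2 replicate 2 (0.054) or KO2 replicate 3 (0.054). Psmc2 lost it without Ctrl replicate 1 (0.071), Ctrl replicate 2 (0.076), KO2 replicate 1 (0.052) or KO2 replicate 2 (0.109). Psmc5 lost it without any of the 3 Ctrl libraries (0.078, 0.090 and 0.108), without KO1 replicate 3 (0.066), and without KO2 replicate 1 (0.178) or KO2 replicate 3 (0.112).

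Psmd1 and Psmd2 are the large scaffold proteins of the base, on which ubiquitin receptors dock, and Psmd4 is itself a ubiquitin receptor. None of the 3 passed the test in KO1, where none had an unadjusted p under 0.05 by edgeR either. Psmd1 was at 262, 215 and 234 CPM in Ctrl, 198, 224 and 208 in KO1, and 178, 187 and 176 in KO2. Psmd2 was at 424, 392 and 409 CPM in Ctrl, 386, 455 and 411 in KO1, and 312, 323 and 353 in KO2. For both genes the KO2 libraries were the lowest of the 9, and KO1 overlapped Ctrl. In KO2, Psmd1 fell by 0.39 (SE 0.08, edgeR adjusted p = 0.0017) and Psmd2 by 0.31 (SE 0.08, edgeR adjusted p = 0.0056). Psmd4 stayed at -0.02 (SE 0.07, edgeR adjusted p = 0.85).

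In the lid, 4 of 8 genes fell in KO1 (Psmd8, Psmd13, Psmd6, Psmd7) and 3 fell in KO2 (Psmd8, Psmd6, Psmd11), and none rose in either. Psmd8, which enters the lid last and locks it to the base, had the largest fall of all 31 genes in KO2. It was at 174, 212 and 167 CPM in Ctrl, 112, 108 and 115 in KO1, and 96.7, 96.6 and 106 in KO2. Both lines lay well below Ctrl, and Ctrl replicate 2 was the highest library. The level of Psmd8 fell by 39.4% in KO1 (log2 fold change -0.72, SE 0.09, edgeR adjusted p = 0.00013). In KO2 it fell by 46.0% (-0.89, SE 0.09, edgeR adjusted p = 1.1e-05). Its promoter, printed above, has none of the 3 marked motifs, but it holds matches to ACTACA and TGACG.

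Psmd6 was at 78.1, 74.9 and 67.5 CPM in Ctrl, 60.8, 57.1 and 55.6 in KO1, and 63.3, 59.1 and 61.4 in KO2. The lines overlapped each other and both lay below Ctrl, with log2 fold changes of -0.35 (SE 0.07, edgeR adjusted p = 0.0044) and -0.26 (SE 0.07, edgeR adjusted p = 0.011). Psmd13 fell in KO1 by 0.51 (SE 0.12, edgeR adjusted p = 0.0065), from 84.2, 66.2 and 74.5 CPM to 45.2, 60.9 and 52.2. In KO2 it was within the Ctrl range at 68.8, 66.7 and 74.7 CPM.

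Psmd7, the partner of the deubiquitinase Psmd14, was at 113, 107 and 102 CPM in Ctrl, 92.4, 91.8 and 97.9 in KO1, and 114, 106 and 111 in KO2. Its KO1 libraries did not overlap Ctrl, but the fall of 0.19 (SE 0.07, edgeR adjusted p = 0.048) held in only 2 of 20 alternatives. Without any 1 of the 9 libraries its adjusted p lay between 0.054 and 0.154. The same removals took the KO1 call from Psma2 in 7 of 9 cases, with an adjusted p of up to 0.133 without Ctrl replicate 1. Psmd11 fell by 0.21 in KO2 (SE 0.07, edgeR adjusted p = 0.030), and lost that call without Ctrl replicate 1 (adjusted p = 0.051), Ctrl replicate 2 (0.111), KO2 replicate 1 (0.074) or KO2 replicate 2 (0.103). Psmd3, Psmd12 and Psmd14 passed the test in neither line.

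The base chaperones bind ATPases while the base is being assembled. None of the 3 passed the test in KO1, with no unadjusted p under 0.05 by edgeR. All 3 passed in KO2, beside 54.1% of all tested genes, where Psmd5 rose and Psmd10 and Psmd9 fell. Psmd10, known as gankyrin and a partner of Psmc4, was at 45.1, 38.0 and 44.0 CPM in Ctrl, 38.3, 40.6 and 40.4 in KO1, and 27.1, 25.9 and 25.7 in KO2. The KO2 libraries formed a separate low group. The log2 fold change was -0.69 (SE 0.08, edgeR adjusted p = 3.1e-05). Psmd5, which assembles with Psmc1 and Psmc2, was at 95.0, 99.7 and 88.8 CPM in Ctrl, 104, 98.4 and 103 in KO1, and 125, 118 and 127 in KO2. It had the largest rise of the 31 genes in KO2, 0.39 on the log2 scale (SE 0.07, edgeR adjusted p = 0.00053). Psmd9, whose window carries the antioxidant core, fell by 0.32 (SE 0.08, edgeR adjusted p = 0.0053).

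**Figure D3:**
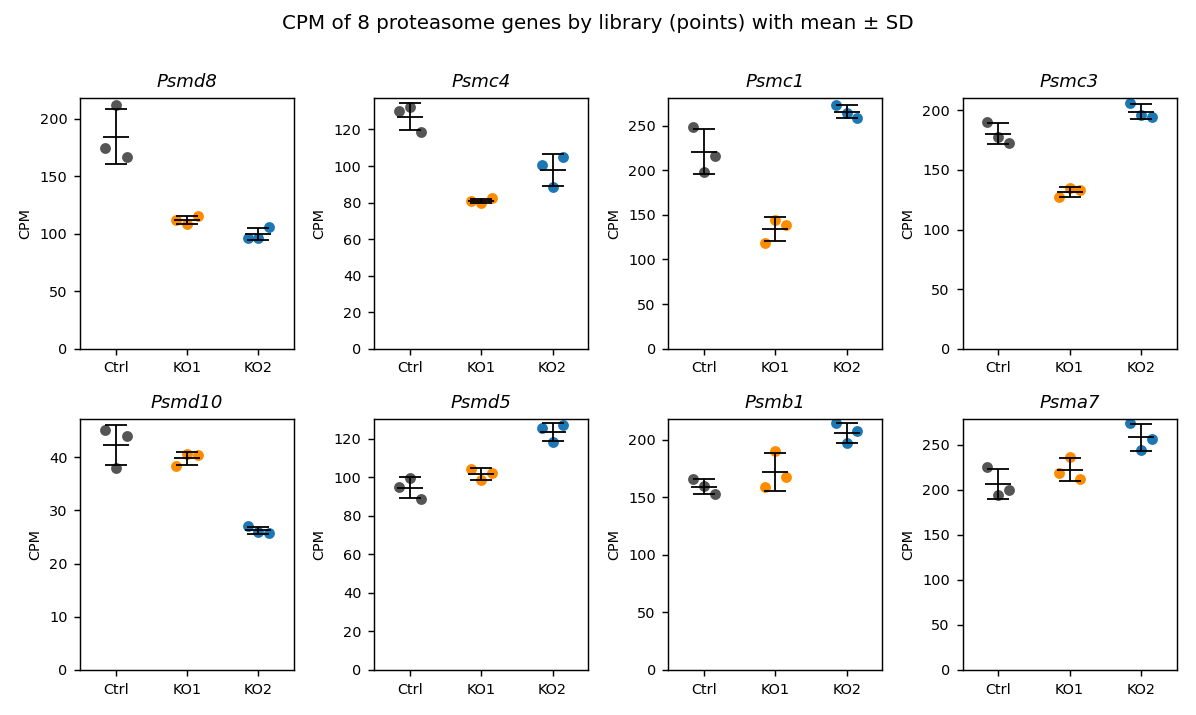
CPM of 8 proteasome genes in each of the 9 libraries, with the group mean and SD as bars and every axis starting at 0. Psmd8 and Psmc4 are low in both lines, Psmc1 and Psmc3 are low in KO1 only, Psmd10 is low in KO2 only, and Psmd5, Psmb1 and Psma7 are highest in KO2.

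The direct test of KO2 against KO1 shows where the lines differ. Of the 31 genes, 12 were higher in KO2 and 3 lower, 48.4% in all. Of all tested genes, 55.0% passed this test, 25.5% higher and 29.5% lower. The median log2 difference of the 31 genes was 0.16, against -0.02 for all tested genes. Of the 6551 tested genes at or above the lowest average log2 CPM of the 31, 2145 were higher and 1601 lower. That is 57.2% in all, with a median of 0.05, so the more abundant genes also leaned towards higher values in KO2. The count of 12 higher and 3 lower turned on the scaling. Scaling by total counts moved the median of all tested genes to -0.13 and gave 7 higher and 8 lower, limma on FPKM gave 6 higher and 7 lower at both pseudocounts, and among all called genes the share that was higher went from 46.4% to 33.4% under total counts. In KO2 against Ctrl that share went from 45.5% to 35.8% and the median of all genes to -0.11.

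Psmc1 led the difference, with a log2 value of 0.99 (SE 0.10, edgeR adjusted p = 6.9e-06), followed by Psmc3 at 0.60 (SE 0.06, edgeR adjusted p = 1.5e-05) and Psma3 at 0.43 (SE 0.08, edgeR adjusted p = 0.00073). At the other end were Psmd10 at -0.60 (SE 0.08, edgeR adjusted p = 8.8e-05), Psmd2 at -0.34 (SE 0.08, edgeR adjusted p = 0.0031) and Psmd1 at -0.22 (SE 0.08, edgeR adjusted p = 0.036). Psma3, Psmc1, Psmc3, Psmc5, Psmd13 and Psmd5 were called higher, and Psmd10 and Psmd2 lower, in all 20. For Psmd8 the lines did not differ by this test (log2 difference -0.17, SE 0.09, edgeR adjusted p = 0.14), although total count scaling and limma on FPKM called it lower in KO2.

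Some calls between the lines were lost when 1 of several libraries was left out. Psmd1 lost its call without Ctrl replicate 3 (adjusted p = 0.055), KO1 replicate 2 (0.155), KO1 replicate 3 (0.075), KO2 replicate 1 (0.103), KO2 replicate 2 (0.053) or KO2 replicate 3 (0.107). Psma7, at 0.21 (SE 0.08, edgeR adjusted p = 0.037), lost it without Ctrl replicate 3 (0.051), KO1 replicate 1 (0.073), KO1 replicate 3 (0.130), KO2 replicate 1 (0.141) or KO2 replicate 3 (0.076). Psmd14, the deubiquitinase of the lid, was at 0.23 (SE 0.08, edgeR adjusted p = 0.023) and lost it without KO1 replicate 3 (0.092), KO2 replicate 1 (0.080) or KO2 replicate 3 (0.069). Psmb1 lost it without KO1 replicate 3 (0.055) or KO2 replicate 1 (0.058), and Psmd7 without KO2 replicate 1 (0.0505).

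Of the 3 cutting subunits that the names leave out, Psmb6 and Psmb7 were lowest in KO1 and highest in KO2, the order also seen for Psmc1. Psmb6, the caspase-like subunit, was at 66.6, 75.8 and 70.5 CPM in Ctrl, 42.6, 48.3 and 45.2 in KO1, and 81.1, 76.8 and 80.7 in KO2. Psmb7, the trypsin-like subunit, was at 168, 158 and 150, then 136, 133 and 128, then 187, 176 and 184 CPM. In CPM neither gene had any overlap between the groups. In FPKM, not rescaled by TMM, Psmb6 in Ctrl replicate 2 lay above KO2 replicate 2, so Ctrl and KO2 overlapped for this gene. Psmb6 fell by 0.65 in KO1 (SE 0.07, edgeR adjusted p = 7.7e-05) and did not pass in KO2 (0.16, SE 0.07, edgeR adjusted p = 0.080). Psmb7 fell by 0.26 in KO1 (SE 0.06, edgeR adjusted p = 0.0090) and rose by 0.20 in KO2 (SE 0.06, edgeR adjusted p = 0.020), a call lost under total count scaling (adjusted p = 0.11), both limma fits on FPKM (0.10 and 0.11), and without Ctrl replicate 3 (0.094), KO2 replicate 1 (0.073) or KO2 replicate 3 (0.058). Psmb5, the chymotrypsin-like subunit, passed in neither (-0.18 in each, SE 0.08, edgeR adjusted p = 0.11 and 0.072), though total count scaling and limma on FPKM called it lower in KO2 (adjusted p of 0.014, 0.013 and 0.012). RefSeq names pseudogenes of all 3.

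Psmb8, which takes the place of Psmb5 in the immunoproteasome, was low in the KO2 libraries: 21.9, 24.8 and 25.3 CPM in Ctrl, 25.9, 25.5 and 25.7 in KO1, and 14.1, 14.1 and 14.7 in KO2. It fell by 0.75 on the log2 scale against Ctrl (SE 0.08, edgeR adjusted p = 2.0e-05) and by 0.84 against KO1 (SE 0.08, edgeR adjusted p = 7.3e-06). Psmb9 and Psmb10, its immunoproteasome partners, passed in no comparison by edgeR. Psmb11, the thymus form, rose in KO2 on a mean of 0.253 FPKM, from 0.0533 in Ctrl (log2 fold change 2.29, SE 0.39, edgeR adjusted p = 0.00048). Adrm1 and Shfm1, the remaining regulatory subunits, passed in no comparison by edgeR. Adrm1 was at -0.30 in KO1 (SE 0.11, edgeR unadjusted p = 0.021, adjusted p = 0.063), where DESeq2 called it lower (adjusted p = 0.040), as did edgeR without Ctrl replicate 1 (0.036). Shfm1 was at 0.26 in KO2 against KO1 (SE 0.11, edgeR adjusted p = 0.060), and DESeq2 called it higher there (adjusted p = 0.041).

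Together with the related subunits above, the genes of the lists around the 31, which cover caps, chaperones, ubiquitin handling and transcription, came to 51 tested genes. Of these 3 rose and 8 fell in KO1 (21.6%, beside 30.5% of all tested genes), and 10 rose and 20 fell in KO2 (58.8%, beside 54.1%). Among the alternative caps, Psme1 and Psme2, which form the immune-linked cap, rose in KO1 by 0.23 (SE 0.06, edgeR adjusted p = 0.018) and 0.26 (SE 0.06, edgeR adjusted p = 0.011). Psme1 lost that call without Ctrl replicate 1 (adjusted p = 0.056), Ctrl replicate 3 (0.074) or KO1 replicate 3 (0.065), and Psme2 without Ctrl replicate 3 (0.059). The cap gene Psme4 fell in KO1 (-0.39), and Psme3 fell in KO2 (-0.65, SE 0.19, edgeR adjusted p = 0.017), a call lost without Ctrl replicate 2 (adjusted p = 0.059), KO2 replicate 2 (0.056) or KO2 replicate 3 (0.053). Of the 5 core chaperones none passed in KO1 (none at an unadjusted p under 0.05 by edgeR), and in KO2 Psmg1 fell (-0.50) and its partner Psmg2 rose (0.35). Pomp, which matures the beta ring, was at 0.44 in KO2 (SE 0.19, edgeR adjusted p = 0.069), where DESeq2 called it higher (0.029). Akirin2, which brings proteasomes into the nucleus, fell in KO2 (-0.52), as did AI314180, the mouse gene for a proteasome adaptor (-0.48), while Txnl1 rose (0.19). The Txnl1 call was lost under total count scaling and both limma fits on FPKM (adjusted p of 0.15, 0.14 and 0.15) and without any 1 of 5 libraries, with an adjusted p of up to 0.12 without Ctrl replicate 3.

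In KO2 2 of the 4 ubiquitin genes and activating enzymes reported here rose and 1 fell. The ubiquitin genes Rps27a and Ubb rose by 0.38 (SE 0.06, edgeR adjusted p = 0.00038) and 0.37 (SE 0.10, edgeR adjusted p = 0.0089), and the activating enzyme Uba6 fell (-0.40, SE 0.09, edgeR adjusted p = 0.0022). None of the 4 passed in KO1, and none had an unadjusted p under 0.05 there by edgeR. Of 10 tested shuttle and segregase genes, 5 fell and 1 rose in KO2, and 3 fell and 1 rose in KO1. Ubqln1, which carries ubiquitinated proteins to the proteasome, fell in both (-0.49 and -0.81), as did the shuttle Rad23b (-0.42 and -0.37) and the segregase Vcp (-0.41 and -0.29). The KO1 call of Vcp was lost when replicate 1 or 3 of Ctrl (adjusted p of 0.076 and 0.055) or of KO1 (0.054 and 0.067) was left out. Its KO2 call was lost without any 1 of 5 libraries, with an adjusted p of up to 0.18 without Ctrl replicate 1, and with DESeq2 size factors (0.061), upper quartile scaling (0.061), no filter (0.082) or limma-voom (0.0503). Rad23b lost its KO2 call without KO2 replicate 2 (0.0506). Of 4 enzymes bound to the proteasome, Ube3a (-0.46), Uchl5 (-0.34) and Ube3c (-0.25) fell in KO2, Usp14 passed in neither line, and none of the 4 passed in KO1, with none at an unadjusted p under 0.05 by edgeR. Uchl5 lost its call without Ctrl replicate 1 (adjusted p = 0.062) or KO2 replicate 2 (0.060), and Ube3c without Ctrl replicate 2 (0.095), KO2 replicate 1 (0.05014) or KO2 replicate 2 (0.11).

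Among 11 genes that control proteasome transcription, 3 rose and 5 fell in KO2 (72.7%, beside 54.1% of all tested genes), and none rose and 2 fell in KO1 (18.2%, beside 30.5%). Nfe2l1, the factor that raises subunit genes, was at 418, 615 and 487 CPM in Ctrl, 681, 495 and 667 in KO1, and 291, 247 and 269 in KO2. All KO2 libraries were below all others, and KO1 overlapped Ctrl. In KO2 Nfe2l1 fell by 0.91 on the log2 scale (SE 0.15, edgeR adjusted p = 0.00061), and in KO1 its value was 0.28 (SE 0.15, edgeR adjusted p = 0.20). By edgeR, Nfe2l1 was called higher in KO1 without Ctrl replicate 2 (0.44, adjusted p = 0.039) or KO1 replicate 2 (0.41, adjusted p = 0.043). The small partners of its product, Mafk (-1.35, SE 0.17, edgeR adjusted p = 5.5e-05) and Maff (-1.04, SE 0.10, edgeR adjusted p = 4.6e-06), fell in KO2, while the third, Mafg, did not pass (-0.09, SE 0.11, edgeR adjusted p = 0.47). Stat3 fell as well (-1.58, SE 0.07, edgeR adjusted p = 1.8e-08). The genes that rose in KO2 were Nfya (0.66, SE 0.09, edgeR adjusted p = 0.00011), a subunit of the factor NF-Y, Keap1 (0.53, SE 0.09, edgeR adjusted p = 0.00046), which holds NRF2 in check, and Nfe2l2. The other NF-Y genes, Nfyb and Nfyc, did not pass in KO2 (0.03 each, edgeR adjusted p = 0.775 and 0.73). Nfyb fell in KO1 (-0.30, SE 0.09, edgeR adjusted p = 0.020). That call was lost without Ctrl replicate 1 (adjusted p = 0.053), Ctrl replicate 2 (0.055) or KO1 replicate 3 (0.090).

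Ngly1 and Ddi2 encode enzymes that process the NRF1 protein. Ngly1, which edits its sugar-bearing sites, was at 14.4, 15.5 and 15.2 CPM in Ctrl, 17.4, 14.7 and 15.3 in KO1, and 8.52, 8.41 and 7.96 in KO2 (log2 fold change -0.86, SE 0.10, edgeR adjusted p = 2.3e-05). The protease gene Ddi2, whose product cuts NRF1 free, fell by 0.42 (SE 0.10, edgeR adjusted p = 0.0057). Nfe2l2, which encodes NRF2, fell in KO1 (-0.44, SE 0.07, edgeR adjusted p = 0.00061) and rose in KO2 (0.23, SE 0.07, edgeR adjusted p = 0.014), the same 2 directions as Psmc1. The Nfe2l2 rise was not called under total count scaling (adjusted p = 0.077), in limma on FPKM (0.074 and 0.075) or without KO2 replicate 1 (0.052). Ngly1, Nfe2l2, Mafg, Nfya, Nfyb, Nfyc and Keap1 were picked for mention after their values were seen. Protein levels and activity were not measured.

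**Figure D4:**
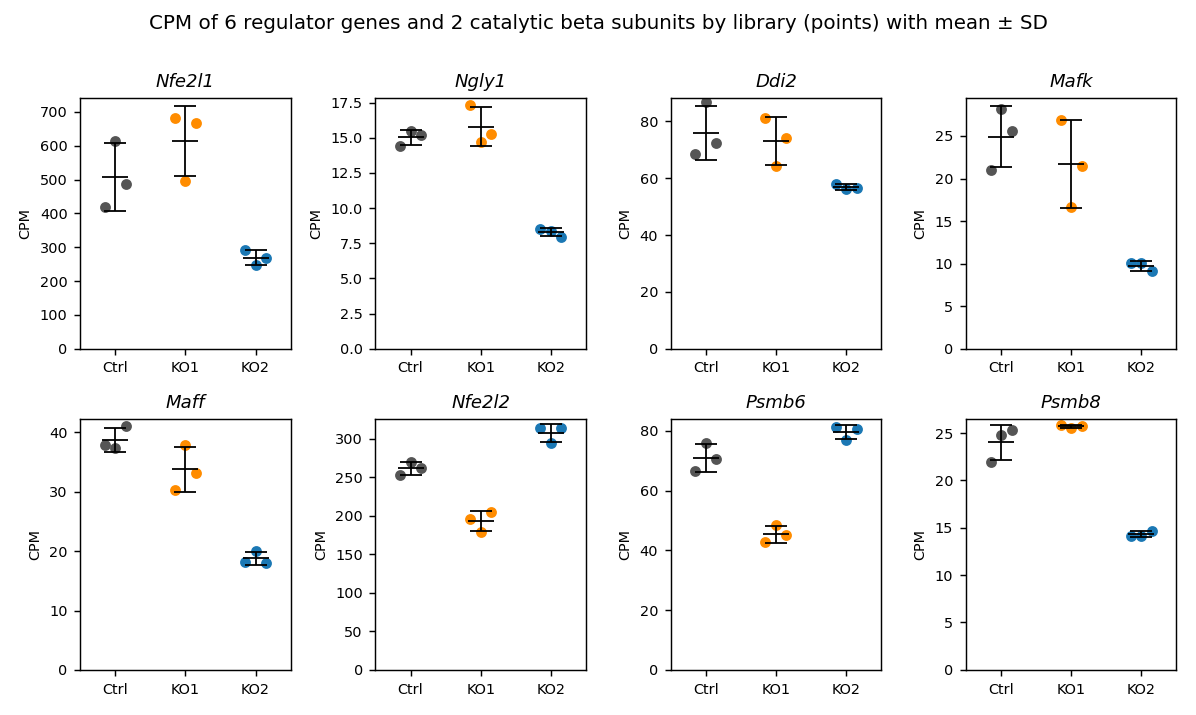
CPM of Nfe2l1, Ngly1, Ddi2, Mafk, Maff and Nfe2l2, and of the cutting subunits Psmb6 and Psmb8, in each of the 9 libraries with group mean and SD and axes from 0. The first 5 and Psmb8 are lowest in KO2, while Nfe2l2 and Psmb6 are lowest in KO1.

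The genes that fell in KO1 were unevenly placed in the genome. The 31 genes lie on 15 chromosomes (GRCm38), and the 8 on chromosomes 7, 12 and 13 held 7 of the 10 that fell in KO1, with a median log2 fold change of -0.48, against 3 of 23 elsewhere, with a median of -0.12. These 3 chromosomes were singled out after the values were seen. Their other genes were also lower in KO1: 57.3% of 443 other tested genes on chromosome 12 fell, 33.0% of 476 on chromosome 13 and 29.4% of 944 on chromosome 7, with medians of -0.37, -0.20 and -0.18. Psma6 (chr12:55384222-55418459), Psma3 (chr12:70969283-70995877) and Psmc1 (chr12:100110202-100123364) are on chromosome 12, and the median of their 50 nearest tested neighbours was -0.40, -0.33 and -0.45 in KO1. Psma6 was thus close to its neighbours, and Psmc1 was further down, with a gap of -0.27. The neighbours of Psma2 on chromosome 13 had a median of -0.35.

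On chromosome 7, Psmd8 (chr7:29174187-29180673) and Psmc4 (chr7:28041702-28050092) lie near each other, and their neighbours had medians of -0.28 and -0.21 in KO1 and -0.30 and -0.18 in KO2. Both genes were further down than these neighbours in both lines, with gaps for Psmd8 of -0.44 in KO1 and -0.59 in KO2. Psmc3 (chr2:91054016-91059438) and Psmd13 (chr7:140882394-140898642) fell in KO1 beside neighbours with medians of -0.03 and -0.04. Over all 31 genes in KO1, 26 were below the median of their neighbours and the median gap was -0.18. In KO2, 15 were below and the median gap was 0.01. There, 53.5% of 813 other genes on chromosome 4 fell, and Psmb2, the proteasome gene on it, stood at -0.35 beside neighbours at -0.33. On chromosome 14, 45.4% of 438 other genes fell in KO2. Psmd6 and Psmc6 on it stood at -0.26 and -0.23 beside neighbours at -0.27 and -0.54. Psma6 stood at -0.21 beside neighbours at -0.19. Psmd10 on the X chromosome, however, stood at -0.69 beside neighbours at -0.20, and Psmd2 on chromosome 16 at -0.31 beside neighbours at 0.32. Gene copy number was not measured, and the part of these neighbourhoods in the changes was not tested.

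**Figure D5:**
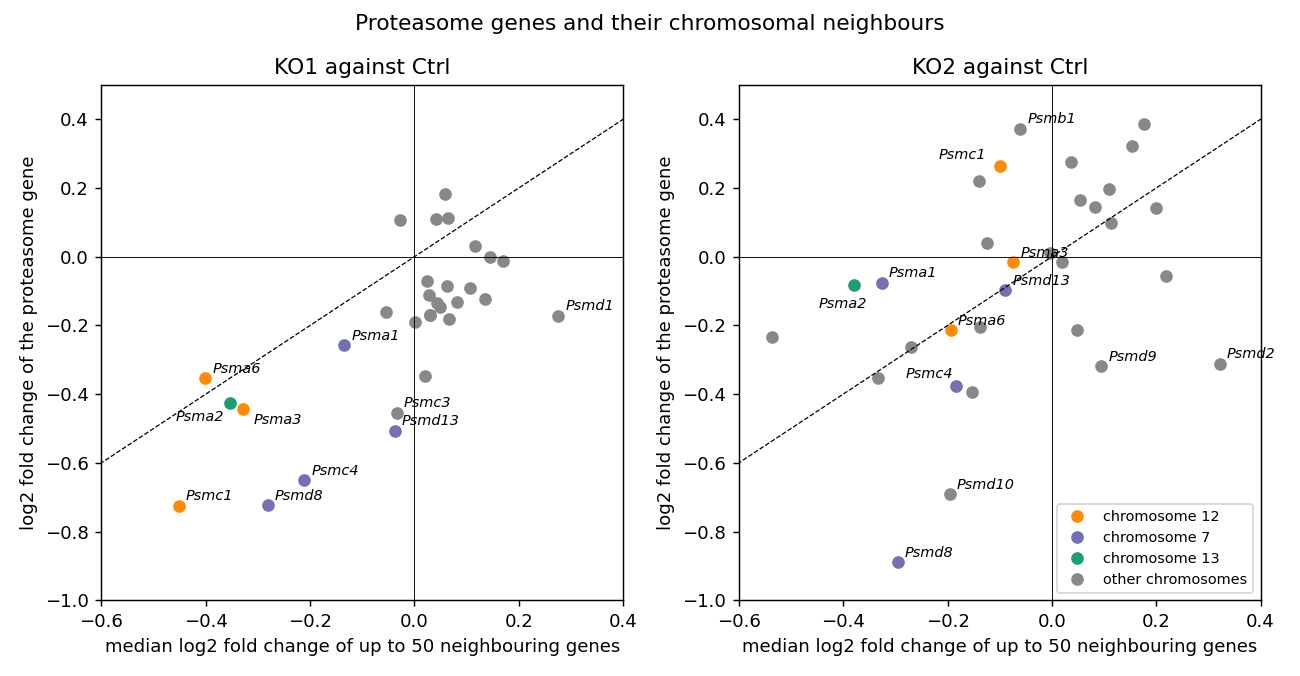
Log2 fold change of each of the 31 proteasome genes (vertical) against the median log2 fold change of up to 50 tested neighbours, 25 on each side (horizontal), in KO1 and in KO2, with a dashed line where both are equal and colours for chromosomes 7, 12 and 13. In KO1 the coloured points lie at the lower left, with Psma6 near the line and Psmd8, Psmc4 and Psmd13 far below it; in KO2 Psmd2, Psmd8 and Psmd10 lie farthest below the line.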

How the data were processed

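Total RNA of 9 samples was sequenced, and reads were turned into gene tables by the authors; the submitters' processing notes name HISAT, RSEM, mm10 and GRCm38, with versions not given in the sources used here. The deposited tables give for each gene an expected count (estimated by the authors, not normalised), an FPKM value, which the authors scaled by length and library, and the transcript length the authors used (unit other: bases). Genes under 0.01 FPKM are not listed and were taken as 0. Between 74.7% and 75.8% of expected counts were exactly whole as deposited, with no tolerance, and all were rounded. Whether counting used strand is not given in the sources used here. Groups follow the sample titles; the design text writes the sixth and ninth names differently.

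Counts were tested in edgeR 4.0.16 (R 4.3.3) with all 9 libraries in 1 fit: filterByExpr, TMM (factors 0.95 to 1.036), robust glmQLFit and glmQLFTest, 6 residual degrees of freedom, 13682 genes, a biological coefficient of variation of 11.1%, and Benjamini-Hochberg adjustment over all of them. The test recovered, in simulated KO1 data on 13682 genes with 50 changed at each fold size, 6% of 1.2-fold, 74% of 1.5-fold and 90% of 2-fold changes, and in simulated KO2 data 8%, 62% and 84%. Far fewer genes were changed there than the 4177 and 7400 called in the data for KO1 and KO2. The adjustment was therefore stricter in the simulation, and these shares do not give the sensitivity for the 31 genes. Alternatives used DESeq2 1.42.0 and limma 3.58.1 and are given in the closing section. Libraries with the same replicate number did not deviate together (correlations -0.34 to 0.05), so they were treated as unpaired. Between libraries of different numbers the correlations ran from -0.17 to 0.34, highest for Ctrl replicate 2 with KO1 replicate 1, and the fit did not model this. Replicates differed by more than counting noise, and unevenly between groups. The chi-square per gene for pairs of libraries ran from 9.74 to 34.2 within Ctrl, 18.7 to 59.9 within KO1 and 7.88 to 12.5 within KO2.

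The genes, roles and related lists were chosen with earlier results of these data known. The rule for names took all 31 genes, single-library values for the 3 called genes at each end of a comparison, and up to 4 genes of each related list by size of change. Further ones were added for context. Positions and promoters are from RefSeq, GRCm38.p6, with windows for 26 of 31 genes. Of the related lists, Ubqln2 was too low to test, and 2 genes of a related list and 1 cell type marker are not reported here.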

Additional observations from a re-analysis of the deposited data

Results flagged for a closer look

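The lines differed from each other, by the direct edgeR test of KO2 against KO1, in 15 of the 31 proteasome genes (48.4%, beside 55.0% of all tested genes), which is why they are listed. Groups of 3 libraries were too small for a check on outlying samples.

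The 12 genes higher in KO2 include 4 ATPases, with log2 differences of 0.99 for Psmc1, 0.60 for Psmc3, 0.30 for Psmc5 and 0.28 for Psmc4. In the core, Psma3 was at 0.43, Psmb3 at 0.35, Psmb1 at 0.26 and Psma7 at 0.21. In the lid, Psmd13 was at 0.41, and Psmd7 and Psmd14 were at 0.23 each. The chaperone Psmd5 was at 0.28. The 3 genes lower in KO2 were the chaperone Psmd10 at -0.60 and the base scaffolds Psmd2 at -0.34 and Psmd1 at -0.22. Psmc4 differed although it fell in both lines against Ctrl, by more in KO1. Psmb3, Psmb1 and Psma7 rose in KO2 and did not pass the test in KO1.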

How the results depend on the processing

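Of the genes called against Ctrl, 8 of 10 falls in KO1, and 3 of 7 rises and 7 of 12 falls in KO2, were called in all 20 alternative fits. The count of rises in KO1, 0 in the edgeR fit, was 1 under total count scaling, DESeq2, limma on log2(FPKM + 1) and limma on log2(FPKM + 0.1). The count of rises in KO2, 7, was 3 under total count scaling, both limma fits on FPKM and an adjusted p under 0.01, where falls went from 12 to 6. Between the lines, 12 higher and 3 lower became 7 and 8 under total count scaling, and 6 and 7 under both limma fits on FPKM; at an adjusted p under 0.01, 5 were higher. Leaving out each library in turn gave 8 to 11 falls and 0 rises in KO1, 3 to 9 rises and 7 to 12 falls in KO2, and 8 to 16 higher and 2 to 4 lower between the lines. No called gene changed sign under any of these. The cause of the lost calls was not tested. With the replicate number as a block, the rises in KO2 went from 7 to 3, with no pairing given by the labels.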
